A study of Mus musculus with 6 samples.

Results

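The genes described here are 35 of the 37224 genes counted in the series, namely the core of the Hippo pathway and known targets of its effector YAP. They were chosen by name as known components of the pathway. They comprise 2 coactivators (*Yap1* and *Wwtr1*), 4 TEAD transcription factors, 9 genes of the core kinase cassette, 7 upstream scaffolds and atypical cadherins, 8 proteins that bind YAP, TEAD or LATS and 5 YAP target genes. All 35 symbols matched 1 Ensembl identifier each. Their expression was compared between whole wild-type (wt) pancreata of C57/Bl6J mouse embryos at 13.5 and at 15.5 days post coitum (dpc), with 3 samples per stage. The labels name no mutation, transgene or treatment for either group. Each sample was a pool of pancreata from up to 3 embryos, and the samples of a stage were independent of each other. The organ was neither sorted nor separated into epithelium and mesenchyme, so that fewer cells of a type and less RNA per cell cannot be told apart in these data.

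The Hippo pathway is a kinase cascade that restrains organ growth. TAO kinases and scaffolds at the cell cortex activate the MST kinases, which phosphorylate the LATS kinases with the help of the adaptors SAV1 and MOB1, and LATS phosphorylates YAP and its paralogue TAZ so that they are held in the cytoplasm or degraded. Unphosphorylated YAP and TAZ enter the nucleus, bind TEAD factors and switch on genes such as *Ctgf* and *Cyr61*. In the pancreas, YAP is known for its role in progenitor expansion, and its activity is controlled mainly at the protein, which RNA levels do not report.

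Total counts ranged from 10546028 to 16389237 per sample. The pancreas markers *Pdx1*, *Ptf1a*, *Nkx6-1* and *Cpa1* were present in all 6 samples, with a summed level of 2009 to 2389 counts per 1000000 counted reads (CPM) at 13.5 dpc and 4739 to 9829.9 CPM at 15.5 dpc. The samples at 15.5 dpc differed far more among themselves than those at 13.5 dpc. The chi-square statistic per gene, which is near 1 for pure sampling noise, was 1.61 to 4.94 for pairs of 13.5 dpc samples and 14.6 to 63.2 for pairs of 15.5 dpc samples, with the highest value between replicates 1 and 2. These differences followed gene length. Across 15578 genes, the log2 ratio of 15.5 dpc replicate 1 to replicate 2 had a Spearman correlation of -0.59 with exon length, so that long genes had fewer counts in replicate 1 and more in replicate 2. The log2 fold change between the stages had a correlation of -0.36 with exon length over the same genes, which are not independent replicates.

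TEAD factors bind a short core sequence, GGAATG, or CATTCC when read on the other strand. To show where these letters lie in the genes of the pathway, the 250 bases before the RefSeq start sites (GRCm38.p6) were searched on both strands. Promoter windows were found for 29 of the 35 genes, and 15 of the 29 (51.7%) held at least 1 match, compared with 1437 of 10981 protein-coding genes tested (13.1%) and 4153 of all 32851 windows (12.6%). The promoters of both coactivators, of *Tead3*, of the LIM protein gene *Ajuba* and of the target genes *Cyr61* and *Axl* were chosen from those with a match. They are shown 5′ to 3′ on the strand of the gene. Capitals mark the match, and the last base shown lies directly before the start site.
Yap1 (chr9:8004597-8004846, minus strand): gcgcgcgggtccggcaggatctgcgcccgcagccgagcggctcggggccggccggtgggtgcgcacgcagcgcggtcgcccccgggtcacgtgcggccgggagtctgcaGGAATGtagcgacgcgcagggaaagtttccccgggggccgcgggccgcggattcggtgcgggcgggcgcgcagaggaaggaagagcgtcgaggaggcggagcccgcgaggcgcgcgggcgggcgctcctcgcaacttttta
Wwtr1 (chr3:57575911-57576160, minus strand): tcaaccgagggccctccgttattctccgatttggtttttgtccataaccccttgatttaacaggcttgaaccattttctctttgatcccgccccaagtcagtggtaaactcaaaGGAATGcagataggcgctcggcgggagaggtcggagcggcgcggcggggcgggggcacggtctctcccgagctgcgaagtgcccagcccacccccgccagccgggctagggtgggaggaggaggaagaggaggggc
Tead3 (chr17:28350806-28351055, minus strand): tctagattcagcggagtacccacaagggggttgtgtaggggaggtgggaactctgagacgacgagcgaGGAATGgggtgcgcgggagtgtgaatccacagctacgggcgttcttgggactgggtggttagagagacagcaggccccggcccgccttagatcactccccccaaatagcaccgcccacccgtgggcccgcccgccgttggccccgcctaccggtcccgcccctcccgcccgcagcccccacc
Ajuba (chr14:54577662-54577911, minus strand): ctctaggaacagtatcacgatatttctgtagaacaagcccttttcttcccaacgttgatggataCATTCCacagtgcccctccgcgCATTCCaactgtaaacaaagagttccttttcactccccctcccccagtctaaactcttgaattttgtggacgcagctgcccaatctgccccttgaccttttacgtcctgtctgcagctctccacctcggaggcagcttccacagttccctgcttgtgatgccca
Cyr61 (chr3:145649986-145650235, minus strand): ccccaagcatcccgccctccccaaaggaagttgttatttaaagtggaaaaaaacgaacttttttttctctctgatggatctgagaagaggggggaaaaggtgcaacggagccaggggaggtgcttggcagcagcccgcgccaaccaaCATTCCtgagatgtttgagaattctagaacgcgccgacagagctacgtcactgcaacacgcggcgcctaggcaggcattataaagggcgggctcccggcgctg
Axl (chr7:25788734-25788983, minus strand): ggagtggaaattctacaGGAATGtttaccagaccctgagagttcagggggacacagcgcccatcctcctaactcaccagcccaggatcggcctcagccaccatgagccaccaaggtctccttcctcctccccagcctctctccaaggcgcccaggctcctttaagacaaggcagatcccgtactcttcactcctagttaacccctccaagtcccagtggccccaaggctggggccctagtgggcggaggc

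In the windows shown, the first base of the match lay 141 bases before the start site in *Yap1*, 136 in *Wwtr1*, 182 in *Tead3*, 103 in *Cyr61* and 233 in *Axl*. The window of *Ajuba* held 2 matches, at 186 and 164 bases. A second window of *Tead3*, for another start site, also held 2, at 123 and 114 bases, and a second window of *Wwtr1* overlaps the one shown and holds the same match. Of the 250 bases of this second *Tead3* window, 217 lay within annotated exons of either strand. All 250 did so in *Wwc2* and *Ankrd1*, 143 in *Mob1a* and 136 in *Amotl2*. Other genes with a match were *Sav1*, *Mob1a*, *Wwc2*, *Amotl2*, *Vgll3*, *Vgll4*, *Ptpn14*, *Fat1* and *Ankrd1*. Of the other TEAD and target genes, *Tead2* and *Hmmr* had a window without a match, and *Tead1*, *Tead4* and *Ctgf* had no window. A match is a description of these letters and not a measured binding site.

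Levels were compared between genes in FPKM, that is counts scaled by exon length and by library size, which were computed here from the raw counts. *Tead2* had the highest level of all 35 genes at both stages, with 78.8 ± 2.61 FPKM at 13.5 dpc and 70.1 ± 5.45 FPKM at 15.5 dpc (mean ± SD, n = 3). It stood at percentile 94.3 of the genes tested. At 13.5 dpc the next levels were those of *Mob1a* (32.6 ± 1.26 FPKM), *Wwc1* (27.9 ± 2.22), *Limd1* (27.6 ± 2.09) and *Axl* (27.1 ± 1.26), which did not differ from each other beyond their spread except that *Mob1a* was above the others in every sample. *Yap1* measured 23.1 ± 0.497 FPKM at 13.5 dpc and 17.3 ± 1.57 FPKM at 15.5 dpc and its paralogue *Wwtr1* 14.4 ± 0.351 FPKM at 13.5 dpc and 10.7 ± 2.05 FPKM at 15.5 dpc, and *Yap1* was higher than *Wwtr1* in all 6 samples. The lowest levels were those of *Taok3* (3.89 FPKM at 13.5 dpc), *Tead1* (3.35), *Tead4* (1.83) and *Ankrd1* (0.111), and only *Ankrd1* did not pass the filter on low counts used with edgeR.

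**Figure D1:**
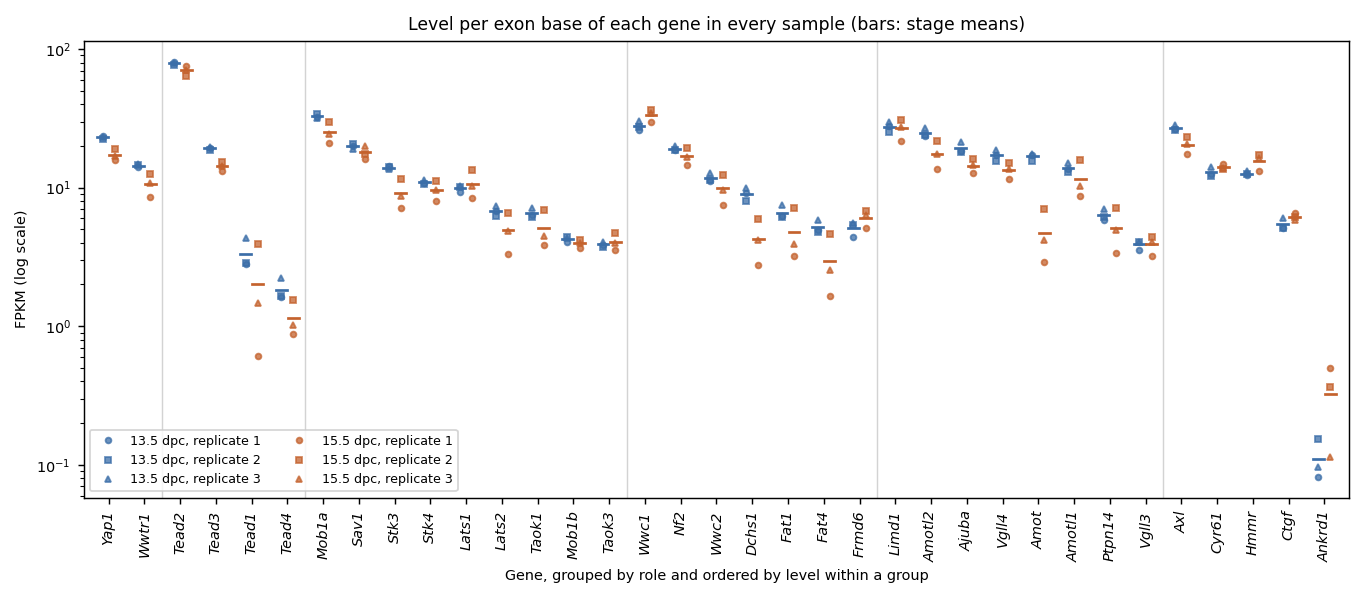
Level of each of the 35 genes in every sample, in FPKM on a log scale, with 13.5 dpc samples in blue, 15.5 dpc samples in orange and a bar at each stage mean. Tead2 lies above all other genes at both stages, and Ankrd1 lies below all others.

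The first question was whether expression of the pathway changed between the stages. With edgeR's quasi-likelihood test, 6 of the 34 genes tested fell from 13.5 to 15.5 dpc at an adjusted p of 0.05 or less, and none rose. The 6 were *Yap1*, *Tead3*, the MST2 kinase gene *Stk3*, the atypical cadherin gene *Dchs1*, the angiomotin gene *Amot* and the receptor tyrosine kinase gene *Axl*. They were 17.6% of the genes tested, against 10.7% of all 15578 genes that were called lower and 11.6% that were called higher. At an unadjusted p under 0.05, 13 of the 34 were lower and 2 were higher, and the share of all genes at this threshold was not counted. DESeq2 called 8 lower and 0 higher, against 7.68% and 9.61% of 23666 genes. The median log2 fold change of the 34 genes was -0.32, against -0.01 over all genes tested. All 15.5 dpc samples lay below all 13.5 dpc samples for 14 genes (41.2%, against 23.6% of all genes) and above them for 1 gene (2.94%, against 22.8% of all genes).

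The pathway genes are long, and the result has to be read beside this. Their median exon length was 5585 bases, against 3470.5 bases over all genes tested, and 17 of the 34 belonged to the longest 25% of all genes (5444 bases or more). In that fraction, genes of every kind had a median log2 fold change of -0.21, 14.1% were called lower and 6.65% higher, and 32.2% had all 15.5 dpc samples below all 13.5 dpc samples. Among the shortest 25% the median was 0.27, with 4.36% called lower and 14.8% higher. The 15.5 dpc samples were also compared for their order. Replicate 1 was the lowest of the 3 for 31 of the 34 genes (91.2%, against 43.9% of all genes and 77.3% of the longest 25%) and replicate 2 the highest for 30 (88.2%, against 42.5% and 79.5%).

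**Figure D2:**
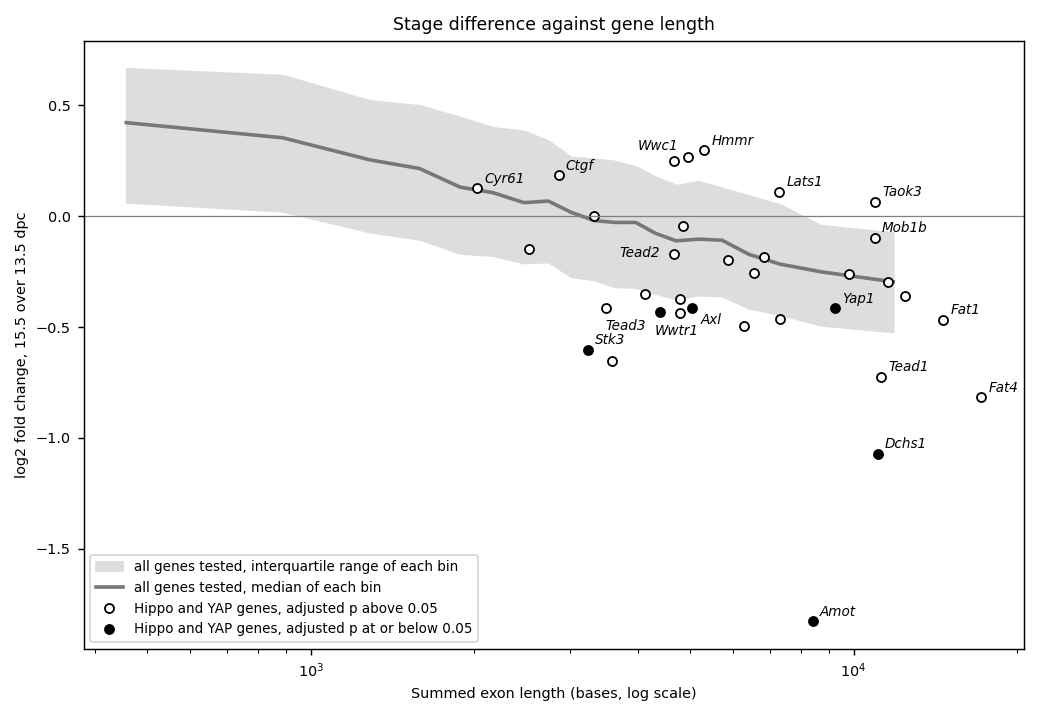
Log2 fold change between the stages against exon length on a log scale, with all 15578 genes tested as the median (line) and interquartile range (grey) of 20 bins and the 34 pathway genes as circles, filled where the adjusted p was 0.05 or less. Of the 6 filled circles, Amot, Dchs1, Stk3, Tead3 and Axl lie below the grey band and Yap1 lies within it.

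Therefore, the fit was repeated after a smooth trend of each library with exon length was removed. This also takes out the part of the stage difference that goes with exon length. A change in this fit is therefore relative to genes of similar length. The median log2 fold change of the 34 genes was then -0.11 (0.01 over all genes), 10 genes fell (29.4%, against 14.7% of all genes called lower) and 5 rose (14.7%, against 18.1% called higher). Of the 6 genes called from the counts as deposited, *Tead3*, *Stk3*, *Dchs1*, *Amot* and *Axl* were called again and *Yap1* was not. *Wwtr1*, *Mob1a*, *Fat4*, *Amotl2* and *Ajuba* were called lower here and not with the counts as deposited, and *Lats1*, *Taok3*, *Wwc1*, *Frmd6* and *Hmmr* were called higher here and not with the counts as deposited and all 6 samples. By the study's own thresholds (adjusted p of 0.1 or less, mean normalised count above 100 at either stage, fold below 0.6 or above 1.6), 2 pathway genes passed in either fit, *Amot* and *Dchs1*, both lower. With DESeq2, without the filter on low counts or with the replicate number as a block, 3 passed. In these fits 543 and 596 of 17374 and 605 of 14011 protein-coding genes passed as lower, and 949, 856 and 850 as higher. With the counts as deposited and any 1 sample other than 15.5 dpc replicate 2 left out, the number was 2. Of 14107 to 14194 protein-coding genes, 412 to 490 then passed as lower and 668 to 822 as higher. Without 15.5 dpc replicate 2 it was 6, and 1010 of 14172 protein-coding genes passed as lower and 1360 as higher. Of 14011 protein-coding genes tested, 3.90% passed as lower and 6.47% as higher with the counts as deposited, and 3.05% and 5.95%, respectively, with the trend removed.

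**Figure D3:**
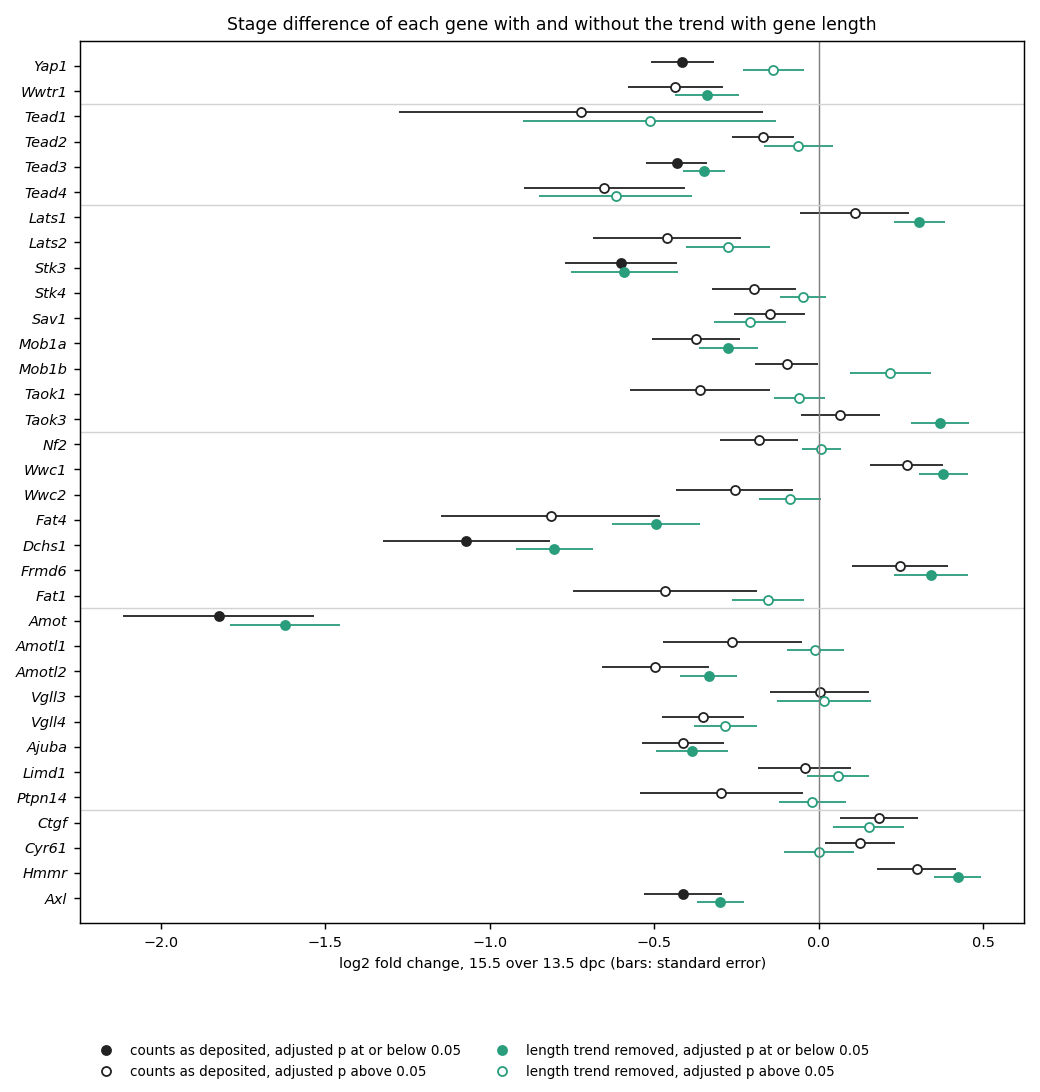
Log2 fold change of 15.5 over 13.5 dpc with its standard error for the 34 genes tested, with the counts as deposited in black and the length trend removed in green, and filled circles where the adjusted p was 0.05 or less. Removal of the trend moved most genes towards higher values, and Amot and Dchs1 stayed the lowest in both fits.

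Of the 14 genes tested whose promoter window held the TEAD core sequence, 3 were called lower and 0 higher with the counts as deposited, and 6 lower and 0 higher with the trend removed. Of the 14 with a window without a match, 1 was called lower and 0 higher with the counts as deposited, and 2 lower and 5 higher with the trend removed. The shares over all genes were 10.7% lower and 11.6% higher with the counts as deposited and 14.7% lower and 18.1% higher with the trend removed, and the difference between the groups of 14 was not tested.

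The calls also depended on single samples. When any 1 of the 13.5 dpc samples or 15.5 dpc replicate 3 was left out, *Amot* was the only pathway gene called with the counts as deposited (2.94% of the 34). In these fits 3.29%, 3.74%, 3.84% and 3.65% of all genes were called lower and 4.54%, 4.70%, 5.04% and 5.40% higher, in the order of replicates 1, 2 and 3 at 13.5 dpc and replicate 3 at 15.5 dpc. Without 15.5 dpc replicate 1, 8 genes were lower (12.8% of all genes) and 2 were higher (14.1% of all genes), *Wwc1* and *Hmmr*. Without 15.5 dpc replicate 2, 22 genes were lower (23.3% of all genes) and none was higher (24.7% of all genes). With the length trend removed, leaving out 15.5 dpc replicate 1, 2 or 3 gave 10, 15 and 3 lower genes (15.8%, 20.9% and 8.47% of all genes) and 5, 5 and 2 higher genes (19.3%, 25.4% and 11.6% of all genes), respectively. The genes called without replicate 3 were *Tead3*, *Amot* and *Dchs1* (lower) and *Wwc1* and *Hmmr* (higher).

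**Figure D4:**
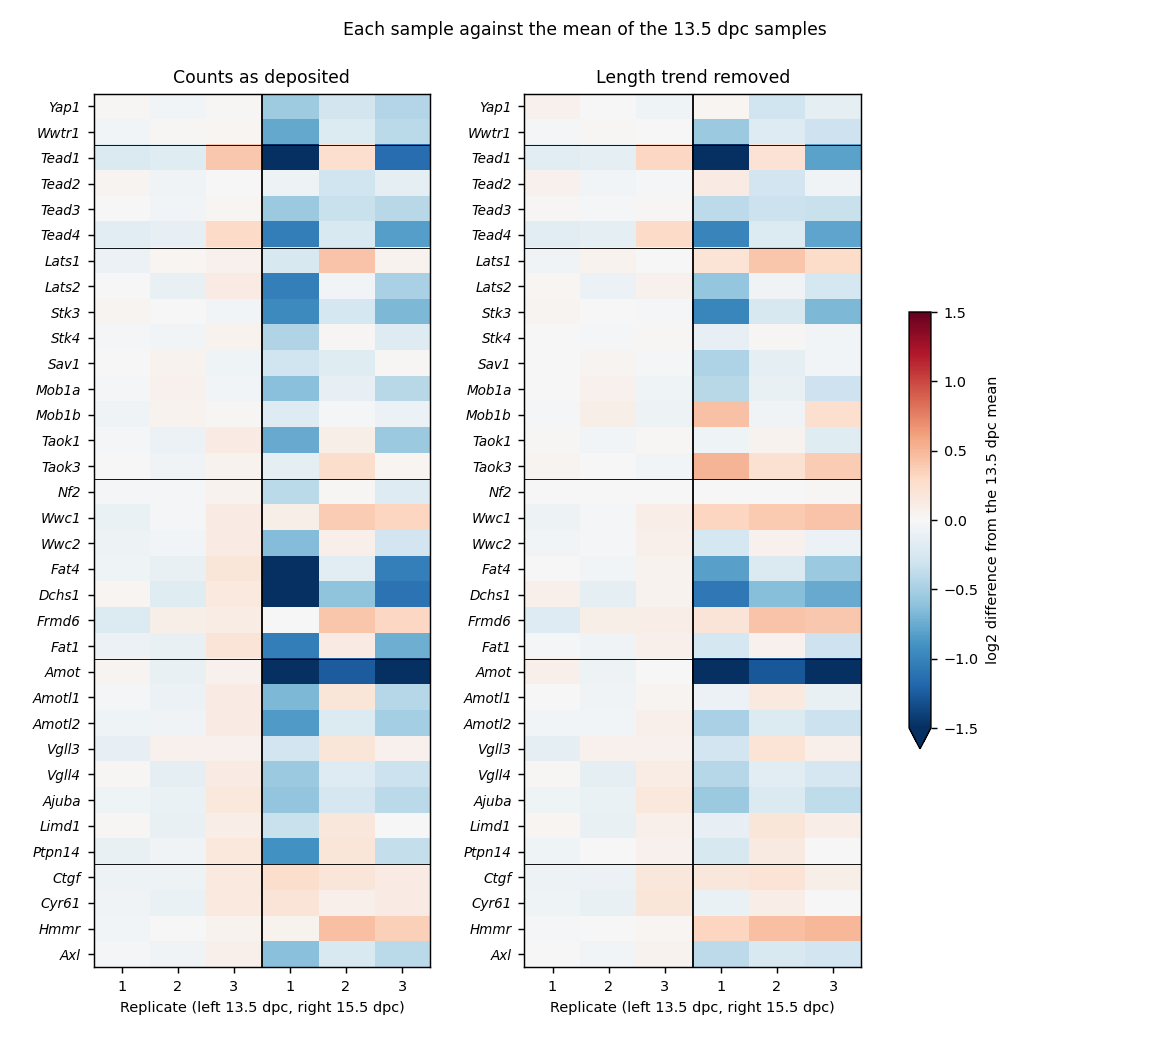
Log2 difference of each sample from the mean of the 13.5 dpc samples for the 34 genes tested, with the counts as deposited on the left and the length trend removed on the right, red for higher and blue for lower. The median difference of the 34 genes with the counts as deposited was -0.58 in 15.5 dpc replicate 1, 0.00 in replicate 2 and -0.38 in replicate 3. On the left, the darkest blue belongs to Amot in 15.5 dpc replicates 2 and 3. In replicate 1 Amot shares it with Tead1, Dchs1 and Fat4, since the colour scale is cut off at its lower end.

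*Yap1* (ENSMUSG00000053110, chr9:7931999-8004596, minus strand, mm10) had normalised counts of 2738, 2630.4 and 2722 in replicates 1, 2 and 3 at 13.5 dpc and 1863, 2224 and 1982 at 15.5 dpc. All 15.5 dpc samples were below all 13.5 dpc samples, and the fold was 0.75 (log2 fold change -0.41 ± 0.10 (SE), edgeR adjusted p = 0.0225). With an exon length of 9257 bases it is a long transcript. With the length trend removed its change was -0.14 ± 0.09 (SE), adjusted p = 0.288, so that the call was lost. Replicate 1 at 15.5 dpc (2499) then became the highest of its stage and replicate 2 (1985) the lowest, which reversed their order. The earlier samples spanned 2343 to 2559 after the removal, so that the stages overlapped. Whether the correction was too strong for *Yap1* was not tested. In that fit the change of *Yap1* depended on single samples, with -0.23 and a call without 15.5 dpc replicate 1 (adjusted p = 0.0293), -0.06 without replicate 2 (adjusted p = 0.581) and -0.13 without replicate 3 (adjusted p = 0.469). *Wwtr1*, which encodes TAZ, had 848, 881 and 888 at 13.5 dpc and 513, 759.8 and 657 at 15.5 dpc, again without overlap (log2 fold change -0.44 ± 0.14 (SE), edgeR adjusted p = 0.0674). Once the length trend was removed, *Wwtr1* fell by 0.34 on the log2 scale (adjusted p = 0.0306). When 1 sample was left out at a time, the log2 fold change ranged from -0.47 to -0.36 for *Yap1* and from -0.56 to -0.30 for *Wwtr1*, and both were called without 15.5 dpc replicate 1 and without 15.5 dpc replicate 2.

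**Figure D5:**
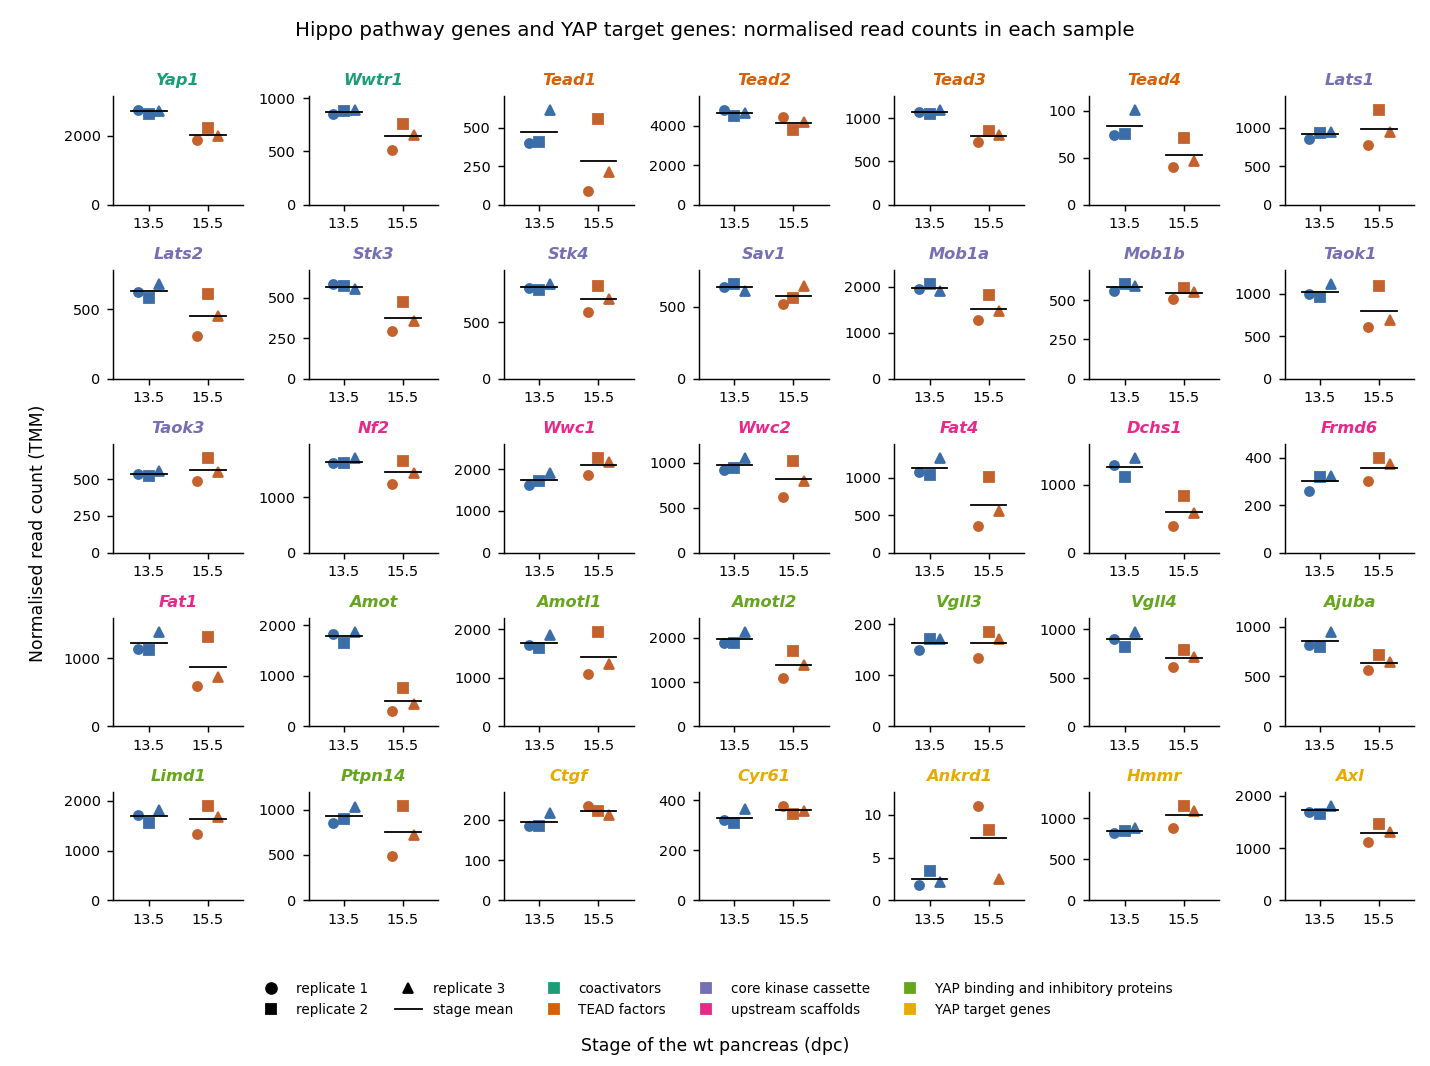
Normalised read count of each of the 35 genes in each sample, by stage, with replicates 1, 2 and 3 as circle, square and triangle and a line at the stage mean. In most panels the 15.5 dpc circle is the lowest and the square the highest of the 3, and Amot shows the widest gap between the stages.

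Of the TEAD genes, whose products carry YAP and TAZ to DNA, *Tead2* made up 76.3% ± 1.18 of the summed TEAD level per exon base at 13.5 dpc and 80.0% ± 4.09 at 15.5 dpc. *Tead3* followed with 18.6% ± 0.264 and 16.3% ± 1.66. *Tead1* made up 3.24% and 2.32% and *Tead4* 1.77% and 1.33%, so that the order of the 4 mean shares was the same at both stages. In 15.5 dpc replicate 1 *Tead4* (0.986%) was above *Tead1* (0.686%). The range of each share at 15.5 dpc touched its range at 13.5 dpc except for *Tead3*.

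*Tead3* had 1072, 1043 and 1093 normalised counts at 13.5 dpc and 728, 847 and 802 at 15.5 dpc. The 15.5 dpc samples were all lower, and their spread was small beside the gap (log2 fold change -0.43 ± 0.09 (SE), edgeR adjusted p = 0.0177). In the length-corrected fit the change was -0.35 ± 0.06 (SE), adjusted p = 0.00501. As for *Yap1*, the call was lost without any 1 of the 13.5 dpc samples or 15.5 dpc replicate 3, with log2 fold changes of -0.45 to -0.42 and adjusted p-values up to 0.0881. *Tead2*, the most abundant TEAD gene, had 4798, 4490.1 and 4654 and 4422, 3788 and 4196, and was the only TEAD gene of which 15.5 dpc replicate 1 held the highest count of its stage. Its stages did not overlap, but the difference was not called (log2 fold change -0.17 ± 0.09 (SE), edgeR adjusted p = 0.223). *Tead4* gave 73.8, 75.4 and 101 and 40.1, 70.6 and 46.6, again without overlap and without a call (log2 fold change -0.65 ± 0.24 (SE), edgeR adjusted p = 0.0941).

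*Tead1* varied more between replicates than any other of the 34 pathway genes at 15.5 dpc. It gave 401, 409 and 616 normalised counts at the earlier and 87.2, 555 and 210.3 at the later stage, so that the highest 15.5 dpc sample was 6.37 times the lowest and exceeded 2 of the 13.5 dpc samples. No difference between the stages could be detected (log2 fold change -0.72 ± 0.55 (SE), edgeR adjusted p = 0.359), and the spread remained with the length trend removed (-0.51 ± 0.38 (SE), adjusted p = 0.333). Without 15.5 dpc replicate 2, its log2 fold change was -1.65 (adjusted p = 0.00456). The count of *Tead1* is uncertain, since 34.2% of its exon bases lie within exons of another annotated gene on the same strand, which had 0 counts in all 6 samples.

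Of the 9 genes of the core kinase cassette, 1 fell (11.1%, against 10.7% of all genes), none rose (against 11.6%) and 8 were not called. At an unadjusted p under 0.05, 2 were lower and 0 higher, and DESeq2 called 1 lower and 0 higher (against 7.68% and 9.61% of all genes). The gene that fell was *Stk3*, which encodes the kinase MST2. It had 587, 572 and 554 normalised counts at 13.5 dpc and 293, 473 and 358 at 15.5 dpc, with no overlap (log2 fold change -0.60 ± 0.17 (SE), edgeR adjusted p = 0.0423). Its exon length of 3237 bases is close to the median of all genes, and removal of the length trend left the value nearly where it was (-0.59 ± 0.16 (SE), adjusted p = 0.0255). The leave-out fits gave -0.79 to -0.45, and *Stk3* was called without 15.5 dpc replicate 1 or 2 only. *Stk4*, which encodes the paralogous kinase MST1, had 805, 791 and 843 and 596, 821 and 709, with overlapping stages (log2 fold change -0.20, adjusted p = 0.286).

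The LATS kinases phosphorylate YAP directly. *Lats1* had 856, 930.3 and 949 normalised counts at 13.5 dpc and 774, 1227 and 946 at 15.5 dpc, where replicate 2 was above and replicate 1 below every 13.5 dpc sample (log2 fold change 0.11, adjusted p = 0.647). With the length trend removed, all 15.5 dpc samples of *Lats1* were above the 13.5 dpc samples. The gene was then called higher, relative to genes of similar length (0.31 ± 0.08 (SE), adjusted p = 0.0198). *Lats2* had 626, 580.4 and 683 and 309, 609 and 448, with lower values in 15.5 dpc replicates 1 and 3 only (log2 fold change -0.46, adjusted p = 0.17). Its counts are less certain than those of the other kinases, since 4.55% of its exon bases are shared on the same strand with *Xpo4*. In the GENCODE transcripts, 41.2% of its 50-base windows also occur in another gene. Whether this affects the count is not known, since *Xpo4* is the only counted gene that overlaps its exons on that strand.

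*Sav1*, the adaptor of the MST kinases, had 639, 658 and 609.8 and 518, 559 and 642 normalised counts at the respective stages, and its stages overlapped. The LATS activator *Mob1a* had 1954, 2061 and 1914 and 1280.1, 1810.0 and 1481, without overlap (adjusted p = 0.0834, and 0.0473 with the length trend removed). Its paralogue *Mob1b* had 558, 604 and 593 and 511, 579 and 550.3, and its stages overlapped. *Taok1* and *Taok3* encode TAO kinases that phosphorylate the MST kinases. Both overlapped between the stages, with 1000.5, 963 and 1118 and 605, 1091 and 698 for *Taok1* and 537, 520.4 and 559 and 491, 646 and 552 for *Taok3*. *Taok3* was called higher with the length trend removed (0.37 ± 0.09 (SE), adjusted p = 0.0149).

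Of the 7 upstream scaffolds and cadherins, *Dchs1* fell (14.3% of the 7, against 10.7% of all genes) and the others were not called. *Dchs1* encodes the atypical cadherin that serves as ligand of FAT4 on neighbouring cells. It gave 1289, 1113 and 1394 normalised counts at the earlier and 385, 830.4 and 586 at the later stage, and the highest 15.5 dpc sample was well below the lowest 13.5 dpc sample (fold 0.476, log2 fold change -1.07 ± 0.25 (SE), edgeR adjusted p = 0.0241). In the fit without the length trend it fell by 0.80 on the log2 scale (adjusted p = 0.00163). *Fat4*, its receptor and the longest of the genes with 17165 exon bases, had 1074, 1035 and 1266 and 357, 1004 and 549. The stages of *Fat4* did not overlap, but the 15.5 dpc samples spread widely (log2 fold change -0.82 ± 0.33, adjusted p = 0.114), and *Fat4* was called lower once the length trend was removed (-0.49 ± 0.13 (SE), adjusted p = 0.025). *Fat1* had 1144, 1127 and 1391 and 592, 1320.2 and 729, with 15.5 dpc replicate 2 inside the range of the 13.5 dpc samples. The log2 fold change of *Dchs1* ranged from -1.37 to -0.83 when 1 sample was left out at a time. It was called without 15.5 dpc replicate 1 (adjusted p = 0.00406) or replicate 2 (7.21e-04) but not without replicate 3 (0.095) or any 13.5 dpc sample.

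None of the genes of the cortical scaffolds was called lower with all 6 samples. *Nf2*, which encodes merlin, had 1618, 1617 and 1717 normalised counts at 13.5 dpc and 1249.7, 1665 and 1446 at 15.5 dpc (adjusted p = 0.284). With the length trend removed its 6 values lay between 1530.4 and 1554, a log2 fold change of 0.01 ± 0.06 (SE). *Wwc1*, which encodes KIBRA, had 1636, 1711 and 1906 and 1860.0, 2277 and 2181, with only 15.5 dpc replicate 1 inside the range of the 13.5 dpc samples (adjusted p = 0.123, and 0.00656 with a log2 fold change of 0.38 with the length trend removed). Its paralogue *Wwc2* had 924, 945 and 1057 and 620.0, 1026 and 801, where 15.5 dpc replicates 1 and 3 were below the 13.5 dpc range. The FERM protein gene *Frmd6* had 261, 319 and 325 and 300.3, 399.8 and 373, with overlap, and was called higher with the length trend removed (0.34 ± 0.11 (SE), adjusted p = 0.0484). A processed pseudogene elsewhere in the genome shares 13.1% of the 50-base windows of *Frmd6*, so that its count may be understated.

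Among the 8 proteins that bind YAP, TEAD or LATS, *Amot* changed by far the most. Angiomotin holds YAP at cell junctions and in the cytoplasm. *Amot* (ENSMUSG00000041688, chrX:145446425-145505181, minus strand) had 1825, 1654 and 1869 normalised counts at 13.5 dpc and 307, 751 and 445 at 15.5 dpc. The highest 15.5 dpc sample was far below the lowest 13.5 dpc sample, and the fold was 0.282 (log2 fold change -1.82 ± 0.29 (SE), edgeR adjusted p = 0.00572). After removal of the length trend the fold was 0.325 (log2 fold change -1.62 ± 0.17 (SE), adjusted p = 3.30e-04), and the call held in every alternative fit that was tried, with log2 fold changes of -2.23 to -1.57 and a highest adjusted p of 0.0364 when 1 sample was left out.

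The fold changes of the angiomotin paralogues were smaller than that of *Amot*, and the difference itself was not tested. *Amotl1* had 1681, 1614 and 1875 and 1075, 1949 and 1279, with 15.5 dpc replicate 2 above all 13.5 dpc samples (log2 fold change -0.26, adjusted p = 0.379). *Amotl2* had 1885, 1892 and 2139 and 1092, 1713 and 1385, without overlap (log2 fold change -0.50, adjusted p = 0.0666), and was called lower with the length trend removed (-0.34 ± 0.09 (SE), adjusted p = 0.02). The standard errors of these changes were 0.21 and 0.16, both small beside the distance to the value of *Amot*.

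*Ajuba* and *Limd1* encode LIM proteins that bind and inhibit LATS. *Ajuba* had 811, 795 and 947 normalised counts at 13.5 dpc and 562, 715 and 641 at 15.5 dpc, without overlap and just above the threshold (log2 fold change -0.41 ± 0.12 (SE), edgeR adjusted p = 0.0525), and was called lower with the length trend removed (-0.39 ± 0.11 (SE), adjusted p = 0.0299). *Limd1* had 1706, 1555 and 1809 and 1335, 1901 and 1684, with both the lowest and the highest value at 15.5 dpc. *Vgll4*, whose product competes with YAP for TEAD, had 904, 816 and 974 and 608, 783 and 718, without overlap (adjusted p = 0.0808). The related TEAD cofactor gene *Vgll3* was low and level, with 149, 171 and 170.2 and 134, 185 and 171. The phosphatase gene *Ptpn14*, whose product binds YAP, had 851, 892 and 1031 and 493, 1042 and 718, and 15.5 dpc replicate 2 was its highest sample.

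Of the 5 YAP target genes, *Ankrd1* did not pass the filter on low counts. Of the 4 tested, *Axl* fell (25%, against 10.7% of all genes) and none rose (against 11.6%). *Ctgf*, *Cyr61* and *Hmmr* were not called. *Ctgf* (also named *Ccn2*), which encodes a secreted matricellular protein, had 186, 185 and 217 normalised counts at 13.5 dpc and 235, 221 and 213 at 15.5 dpc. Only 13.5 dpc replicate 3 reached the range of the 15.5 dpc samples (log2 fold change 0.18 ± 0.12 (SE), edgeR adjusted p = 0.28). *Cyr61* (*Ccn1*), from the same protein family, had 319, 309 and 363 and 378, 347 and 358, and again 13.5 dpc replicate 3 overlapped with the later stage (log2 fold change 0.13 ± 0.11 (SE), edgeR adjusted p = 0.411). In the length-corrected fit the log2 fold changes were 0.15 ± 0.11 for *Ctgf* and 0.00 ± 0.11 for *Cyr61*, so that no difference was detectable in either fit. Exons of the antisense gene *Gm15270* overlap 23.2% of the exon bases of *Ctgf*, but it held 20 counts or fewer in every sample.

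*Axl* encodes a receptor tyrosine kinase. It had 1696, 1658 and 1812 normalised counts at 13.5 dpc and 1109.9, 1465 and 1305 at 15.5 dpc, without overlap (log2 fold change -0.41 ± 0.12 (SE), edgeR adjusted p = 0.0446), and -0.30 ± 0.07 (SE), adjusted p = 0.0147 with the length trend removed. It was called without 15.5 dpc replicate 1 or 2 and not when another sample was left out, with adjusted p-values up to 0.161. *Hmmr*, which encodes a hyaluronan receptor that also binds the mitotic spindle, had 823, 843 and 881 and 882, 1156 and 1090.5. It was the only one of the 34 genes with all 15.5 dpc samples above all 13.5 dpc samples (log2 fold change 0.30 ± 0.12 (SE), edgeR adjusted p = 0.11), and it was called higher with the length trend removed (0.42 ± 0.07 (SE), adjusted p = 0.00349). Of 8 proliferation markers 2 rose, *Plk1* and *Ccna2* (against 11.6% of all genes), and 3 with the length trend removed (against 18.1%). The summed level of the 8 was 1490.3 to 1526 CPM at 13.5 dpc and 1565 to 1779 CPM at 15.5 dpc. *Ankrd1*, a target best known from muscle, had 2, 4 and 3 raw counts at 13.5 dpc and 8, 8 and 2 at 15.5 dpc. It was not called by DESeq2 (log2 fold change 1.56, adjusted p = 0.183) or by edgeR without the filter (1.48, adjusted p = 0.144).

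Ratios between paralogues were also compared, because a ratio within a library does not depend on the normalisation factor. They were taken per exon base as log2 values for 10 pairs, with a two-sided exact permutation test that cannot go below p = 0.1 with 3 samples per stage. That smallest p (adjusted p = 0.143) was reached by 7 pairs. Per exon base *Lats1* was 1.45 times *Lats2* at 13.5 dpc and 2.20 times at 15.5 dpc, a log2 difference of 0.60, and the difference was the same to 2 decimals with the length trend removed. The log2 ratio of *Stk3* to *Stk4* was 0.35 ± 0.08 (SD) at 13.5 dpc and -0.08 ± 0.12 at 15.5 dpc. The log2 ratio differed between the stages by 0.55 for *Wwc1* to *Wwc2* and by 0.39 for *Fat1* to *Fat4*, and by -0.46 for *Taok1* to *Taok3* and -0.29 for *Mob1a* to *Mob1b*. The ratio of *Amotl1* to *Amotl2* differed by 0.21.

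For the remaining 3 pairs the stages overlapped with the counts as deposited. The log2 ratio of *Yap1* to *Wwtr1* was 0.67 ± 0.06 (SD) at 13.5 dpc and 0.71 ± 0.17 at 15.5 dpc (exact permutation p = 0.9, n = 3 per stage). The ratio of *Ctgf* to *Cyr61* was -1.25 ± 0.02 and -1.19 ± 0.05 (exact permutation p = 0.3), and with the length trend removed its stages did not overlap. *Tead1* to *Tead2* gave -4.58 ± 0.35 and -5.51 ± 1.44 (exact permutation p = 0.4).

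Other genes of the pathway were examined as lists. Of 43 further upstream and cytoplasmic regulators, 40 were tested, 4 fell (10%, against 10.7% of all genes) and 1 rose (2.5%, against 11.6%), with a median log2 fold change of -0.15. With the length trend removed, 6 were called lower and 1 higher (15% and 2.5%, against 14.7% and 18.1% of all genes), with a median of -0.01. The polarity gene *Llgl1* had 1916, 1899 and 1939 at 13.5 dpc and 1099, 1407 and 1184 at 15.5 dpc (-0.64 ± 0.11 (SE), adjusted p = 0.00772), with no overlap. *Csnk1e*, a casein kinase gene, had 1497, 1444 and 1534 at 13.5 dpc and 915, 993 and 1016 at 15.5 dpc (-0.61 ± 0.09 (SE), adjusted p = 0.00386). *Rassf5*, whose product binds the MST kinases, changed by -0.77 ± 0.16 (SE), adjusted p = 0.014 on the log2 scale, and *Btrc*, a ubiquitin ligase subunit gene, by -0.39 (adjusted p = 0.0186). *Btrc* was not called with the length trend removed (-0.21, adjusted p = 0.156). The cadherin gene *Fat2* rose from 31.0, 43.7 and 55.3 to 111, 140.1 and 93.2 (1.39 ± 0.25 (SE), adjusted p = 0.00879).

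Of 15 further YAP target genes, 13 were tested, 3 fell (23.1%, against 10.7% of all genes) and 1 rose (7.69%, against 11.6%), with a median of -0.33. With the length trend removed, 5 were called lower and 2 higher (38.5% and 15.4%, against 14.7% and 18.1% of all genes), with a median of -0.34. *Rbms3*, which encodes an RNA-binding protein, had 1822, 1839 and 2027 at 13.5 dpc and 794, 1421 and 928 at 15.5 dpc (-0.85 ± 0.21 (SE), adjusted p = 0.0255), and *Gadd45a*, a stress-response gene, had 456, 519 and 464 at 13.5 dpc and 346, 267 and 292 at 15.5 dpc (-0.67 ± 0.13 (SE), adjusted p = 0.011). The growth factor gene *Tgfb2* changed by -0.52 (adjusted p = 0.0429) and the kinase gene *Nuak2* by 0.68 (adjusted p = 0.0121). A further list held 7 known YAP target genes, taken from a table of such genes in the same project. All 7 were tested and 2 fell, *Sox9* (-0.67 ± 0.13 (SE), adjusted p = 0.0123) and the cyclin gene *Ccnd1* (-0.60 ± 0.10 (SE), adjusted p = 0.00569), while 0 rose, also at an unadjusted p under 0.05 (0) and by DESeq2 (0). The share called lower over all genes was 10.7%, as above.

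Markers of the cell types in the organ moved between the stages as well. All 5 acinar markers rose, and their summed level was 4647 to 5662 CPM at 13.5 dpc and 29276 to 70089 CPM at 15.5 dpc. Of 6 general epithelial markers 3 rose, with 1736 to 1830.0 CPM at 13.5 dpc and 2410 to 3141 CPM at 15.5 dpc. The 7 mesenchymal markers were mixed, with 2 higher (*Dcn* and *Lum*), 1 lower (*Pdgfra*) and summed levels of 8668 to 9955 CPM and 6273 to 9820.3 CPM. Mesothelial markers summed to 170 to 172 CPM and 128 to 150.2 CPM, with 1 of 5 higher and 1 lower. Nerve and glia markers summed to 77.2 to 79.6 CPM and 54.2 to 58.0 CPM, with 3 of 5 lower. Of the duct and trunk markers 2 of 4 tested were lower, *Sox9* among them, and 1 higher, with summed levels of 1220.2 to 1270.2 CPM at 13.5 dpc and 919 to 1027 CPM at 15.5 dpc. Smooth muscle and pericyte markers (2 of 6 higher, 1 lower) summed to 169 to 183 CPM at 13.5 dpc and 196 to 210.0 CPM at 15.5 dpc, and endocrine markers (1 of 5 higher) to 1577 to 1734 CPM at 13.5 dpc and 1609.8 to 2671 CPM at 15.5 dpc. With the counts as deposited, none of 6 endothelial markers was called with edgeR, at an unadjusted p under 0.05 (0) or by DESeq2 (0), and they summed to 437 to 478 CPM at 13.5 dpc and 403 to 508 CPM at 15.5 dpc. Of the blood lineages, 1 of 5 leukocyte markers was lower (96.1 to 98.4 CPM at 13.5 dpc and 83.9 to 111 CPM at 15.5 dpc), and 1 of 4 erythroid markers was higher and 2 lower (49.3 to 58.2 CPM at 13.5 dpc and 51.8 to 73.8 CPM at 15.5 dpc). Liver markers, with 1 of 3 lower, summed to 77.5 to 122 CPM at 13.5 dpc and 51.8 to 75.5 CPM at 15.5 dpc. The numbers called differed for 7 of the 12 lists once the length trend was removed. Higher and lower genes then numbered 5 and 0 for epithelium, 3 and 1 for endocrine cells, 4 and 1 for smooth muscle and pericytes, 1 and 2 for mesothelium, 1 and 0 for endothelium, 0 and 4 for nerve and glia and 0 and 2 for liver. No gene of these lists was at or below 3 counts in all samples. Their part in the values of the pathway genes was not tested.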

How the data were processed

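Poly(A) RNA of 6 wt pancreas samples was sequenced by the authors with a strand-specific kit. Reads were mapped on mm10 with GSNAP, and the authors counted unique alignments per Ensembl gene with featureCounts (version 1.4.6, per the submitters' processing notes) and deposited the raw counts with exon lengths. Whether counting used strand is not given in the sources used here. Of 37224 identifiers, 35449 were paired with symbols from GENCODE (GRCm38, the same assembly), with *Ctgf* and *Cyr61* found under current symbols through RefSeq synonyms.

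Counts were tested in R 4.3.3 with edgeR 4.0.16 (filterByExpr, TMM, quasi-likelihood test, no covariate, Benjamini-Hochberg over 15578 genes, adjusted p of 0.05 or less), and DESeq2 1.42.0 was an alternative. Normalised counts are counts at the (geometric) mean effective library size. The length trend was a lowess curve (span 0.5) of each library's log2 ratio to the mean, entered as an offset. Paralogue ratios used a pseudocount of 0.5. Python 3.11.15, scipy 1.17.1 and matplotlib 3.10.9 were used for ratios and figures. Uncertain counts were marked from exons shared with other genes and from 50-base transcript windows found in other genes. In data simulated for the 15.5 against 13.5 dpc comparison, 140 of 200 genes changed by a fold of 2 were recovered among 15399, with 8 false calls. With a simulated length trend in 1 library, 69 of 200 were recovered among 15409 (0 false), and 147 with the trend removed (4 false). The measured libraries differed from this setting. Each pair of 15.5 dpc samples had a length trend (Spearman correlation -0.59, -0.49 and 0.53), as did the stage fold change (-0.36). Recovery with length trends in more than 1 library was not tested.

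The genes and lists were chosen with earlier results of these data known. Every gene of the pathway list is named, with full statistics for coactivators, TEAD factors, target genes and each gene called, and of the other lists up to 4 genes with the largest called change without overlap. *Btrc*, also called, was named after its values were seen. All 6 sample columns were used.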

Additional observations from a re-analysis of the deposited data

How the results depend on the processing

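With 3 samples per stage, the spread of the 15.5 dpc libraries limits what can be called, and removing the trend with gene length changes several calls. The counts of 6 lower and 0 higher genes held with RLE factors, without the filter, with at least 10 counts in every sample and with genes above 1% of the counts taken out. Upper-quartile factors gave 7 lower genes (11.9% of all genes) and DESeq2 8 (7.68% of 23666 genes). With the library size only, 12 were lower (18.9% of all genes) and 4 passed the study's thresholds. Of 14011 protein-coding genes, 1117 then passed as lower and 531 as higher. In that fit 17 genes of the other lists were called (11 with TMM), but this scaling moved the median of all genes from -0.01 to -0.22. An adjusted p of 0.1 or less gave 12 lower and 0 higher genes, and the share of all genes at this threshold was not counted.

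Replicate numbers did not pair the samples, since deviations of same-numbered samples correlated at 0.22, -0.22 and 0.04. With the replicate block, *Amot*, *Dchs1* and *Stk3* (3 genes) were called lower and 0 higher (8.02% and 9.15% of all genes). With the length trend removed, 10 genes were lower and 5 higher, and with the replicate block added 9 and 5 (12.3% and 15.7% of all genes). The log2 ratio differences with the trend removed were 0.21 for *Yap1* to *Wwtr1*, -0.58 for *Stk3* to *Stk4*, -0.50 for *Mob1a* to *Mob1b*, 0.32 for *Amotl1* to *Amotl2* and 0.15 for *Ctgf* to *Cyr61*. The other 65 of 70 ratio values moved by less than the spread between replicates.

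With 1 sample left out, lower genes numbered 1 to 22, higher genes 0 to 2, genes past the study's thresholds 2 to 6 and calls in the other lists 3 to 33. The median log2 fold change of the pathway genes was negative in every fit, from -0.52 (library size only) to -0.08. Chosen after seeing the data, fits with the length trend removed and 15.5 dpc replicate 1, 2 or 3 left out gave 10, 15 and 3 lower and 5, 5 and 2 higher genes, 1, 4 and 2 genes past the study's thresholds and 18, 26 and 11 calls in the other lists. Of 14194, 14172 and 14193 protein-coding genes, 366, 643 and 422 passed these thresholds as lower and 694, 1100 and 866 as higher. *Mob1b* was called higher (0.35, adjusted p = 0.0131) in the fit without replicate 2, against -0.10 with the counts as deposited. Another 36 of the 646 values changed sign without a call in either fit, in 11 genes. The causes of these changes were not tested.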
